A study of Mus musculus with 4 samples.

Results

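Elastic fibre and fibulin genes were examined in RNA-Seq libraries of group 2 innate lymphoid cells (ILC2s) from mouse lung. They are 10 genes picked by symbol, *Eln*, *Fbn1*, *Fbln1*, *Fbln2*, *Fbln5*, *Efemp1*, *Efemp2*, *Mfap4*, *Mfap5* and *Emilin1*, out of 49315 genes in the count table, and reads were counted on all 10 in every library. The study asked how ILC2s contribute to lung fibrosis in Hermansky-Pudlak syndrome, an inherited disorder of lysosome-related organelles, in mice without a functional *Hps1* gene. There were 4 groups with 1 library each: wild-type (WT) C57BL/6 mice given PBS (PBS-WT), *Hps1*-/- mice given PBS (PBS-HPS1), WT mice given bleomycin (BLEO-WT) and *Hps1*-/- mice given bleomycin (BLEO-HPS1). Bleomycin is a chemotherapy drug that injures the lung and leads to scarring. Cells of all 4 groups had been enriched from lung suspensions, sorted by a lineage-negative gate for the surface proteins Thy1.2, ICOS and T1/ST2, and then kept with IL-2 in culture before RNA was taken, so the culture is common to controls and bleomycin groups. The study's methods describe repeated intraperitoneal bleomycin in young adult mice, but the route, the age and sex of the mice and the number pooled for each sequenced library are not given in the sources used here. RNA came from 22405 and 38873 cells for the PBS libraries (WT, then *Hps1*-/-) and from 84166 and 128647 cells for the bleomycin libraries. Below, 4 values set side by side always follow the group order PBS-WT, PBS-HPS1, then BLEO-WT, then BLEO-HPS1.

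Elastic fibres give the lung its recoil. They consist of a core of cross-linked elastin, the product of *Eln*, on a scaffold of microfibrils built from fibrillin-1 (*Fbn1*) and decorated by *Mfap4*, *Mfap5* and *Emilin1*. Short fibulins (*Fbln5*, *Efemp1*, also called fibulin-3, and *Efemp2*, also called fibulin-4) help to bring elastin and its cross-linking enzymes to the microfibril, and the larger *Fbln1* and *Fbln2* bind elastin, fibronectin and basement membrane proteins. In lung these proteins are known mainly as products of fibroblasts, smooth muscle and mesothelium rather than of lymphocytes.

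The stretch just upstream of a gene's start is where its transcription is assembled. It is shown for *Fbln1*, the member with the largest ratio between the bleomycin libraries, and for *Fbln5*. The latter lies near the lower end only before the correction for GC content and transcript length described below. The stretches are from RefSeq on GRCm38.p6, each the 250 bases before the most upstream listed start, read 5′ to 3′ on the gene's strand. The *Fbln1* window is chr15:85205699-85205948 on the plus strand and the *Fbln5* window is chr12:101819120-101819369 on the minus strand. Capitals mark matches to any of 6 short motifs searched on both strands: the TATA box (TATAAA), the CCAAT box (CCAAT), the GC box (GGGCGG), the AP-1 site (TGANTCA), the SMAD site (CAGACA) and the CArG box of serum response factor.
Fbln1: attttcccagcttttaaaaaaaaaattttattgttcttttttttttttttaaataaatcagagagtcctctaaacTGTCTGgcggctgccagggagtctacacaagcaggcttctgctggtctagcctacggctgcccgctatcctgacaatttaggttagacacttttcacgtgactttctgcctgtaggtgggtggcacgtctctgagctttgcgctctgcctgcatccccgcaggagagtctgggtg
Fbln5: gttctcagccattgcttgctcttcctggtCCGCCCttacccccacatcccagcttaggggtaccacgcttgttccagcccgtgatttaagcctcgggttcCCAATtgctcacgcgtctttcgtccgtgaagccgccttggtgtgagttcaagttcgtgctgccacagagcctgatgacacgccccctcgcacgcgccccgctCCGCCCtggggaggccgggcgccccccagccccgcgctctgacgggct
The *Fbln1* window held 1 SMAD-type match on the other strand and none of the other motifs, and 46.4% of its bases were G or C. The *Fbln5* window held 1 CCAAT box and 2 GC boxes, with 65.2% G or C. Of the 10 genes, 7 were found in the promoter table, and *Eln*, *Mfap4* and *Mfap5* were not. Over those 7, a GC box was found in 5 (*Fbn1*, *Fbln2*, *Fbln5*, *Efemp1* and *Efemp2*), a SMAD site in 2 (*Fbln1* and *Emilin1*), an AP-1 site in 1 (*Efemp1*), a CCAAT box in 1 (*Fbln5*), and a TATA box or CArG box in 0. Among the 27025 genes of the promoter table, windows of the same length held a GC box in 33.0%, a SMAD site in 17.1%, an AP-1 site in 6.85%, a CCAAT box in 34.5%, a TATA box in 13.0% and a CArG box in 1.41%. No single motif was common to the 7 windows, and a letter match is not evidence of binding.

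The libraries held 72513619 to 87638154 counted reads. Levels are given as CPM, reads scaled to a library of fixed size, with TMM factors, and 3 reads, the floor of detection, corresponded to 0.0303 to 0.0475 CPM. A difference is given as a log2 ratio of CPM, where 1 is 2-fold, with an exact 95% interval that covers counting error only. With 1 library per group nothing is known of the variation among mice and no test of a condition could be made, so a difference of 2-fold or more describes these libraries, and the share of all 14840 compared genes that reached it is given in each comparison. Ratios also varied with the GC content and length of transcripts, and values after a loess correction for both are called corrected.

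Markers of other cells were present in these libraries. The sums of 4 stromal marker lists were highest in BLEO-HPS1, and so were those of the endothelial and ILC2 markers. In group order, the 10 fibroblast markers summed to 210, 374, 667 and 3180 CPM. Likewise adventitial fibroblast markers summed to 201, 215, 154 and 541 CPM, alveolar fibroblast markers to 178, 234, 208 and 399, and smooth muscle and myofibroblast markers to 19.5, 26.7, 27.3 and 76.2. Of the adventitial list, *Dpp4* (58.9, 43.3, 31.5 and 27.4 CPM) and *Sema3c* (66.5, 78.4, 25.4 and 18.8) were lowest in BLEO-HPS1, and the rest were highest there. The largest part of the alveolar sum was *Inmt*, at 76.7, 93.8, 113 and 278 CPM. Of that list, *Npnt*, *Limch1* and *Slc7a10* were highest in PBS-HPS1, and the rest in BLEO-HPS1. The 5 mesothelial markers summed to only 12.2 to 15.9 CPM in any library. Macrophage markers were abundant throughout, at 7552 to 16303 CPM, most of it from *Lyz2*, and endothelial markers lay at 790 to 1162 CPM and epithelial markers at 474 to 1170. ILC2 markers were present in every library, 791 to 1172 CPM over the 13 of 15 analysed, with *Thy1* (551 CPM in BLEO-HPS1) and *Arg1* (387 CPM in BLEO-WT) as large parts of the sum. Between BLEO-WT and BLEO-HPS1 these markers differed in direction. *Thy1* was at 224 and 551 CPM, *Klrg1* at 17.7 and 35.6, and the lineage factor *Gata3* at 25.1 and 26.9. The log2 ratios of *Thy1* and *Klrg1* were 1.30 and 1.01, and 0.80 and 0.95 corrected. In contrast, *Rora* was at 25.2 and 13.2 CPM, *Il7r* at 149 and 76.9, *Icos* at 51.4 and 32.1 and *Il1rl1* at 37.3 and 23.8. For these genes, in this order, the log2 ratios were -0.93, -0.96, -0.68 and -0.65, and -0.07, -0.36, -0.22 and -0.03 corrected. No gene of these marker lists was at 0 reads in any library. A larger number of cells of a type and more RNA per cell cannot be told apart in such bulk samples, and the part of other cells in the values below was not tested. Reads on *Hps1* itself remained in the *Hps1*-/- libraries, at 16.6 CPM (PBS-HPS1) and 21.3 CPM (BLEO-HPS1), below 38.3 and 48.4 CPM in the matching WT libraries.

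**Figure D1:**
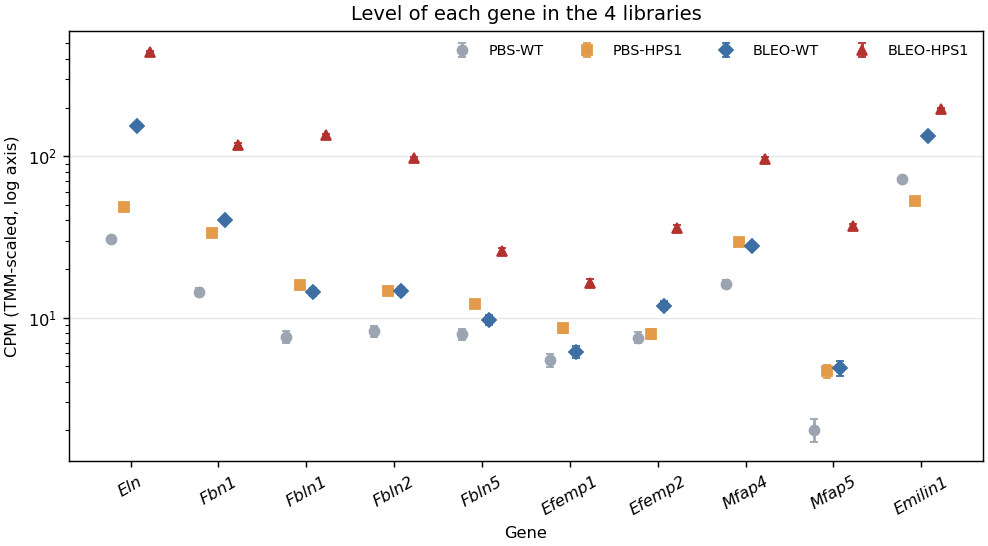
CPM of each of the 10 genes (log axis) in the 4 libraries, 1 point per library, with bars for exact 95% counting intervals. All 10 genes were highest in BLEO-HPS1, and Emilin1 stood out among them as the gene with its lowest level in PBS-HPS1 instead of PBS-WT.

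All 10 genes had their highest CPM in BLEO-HPS1, and 9 of the 10 had their lowest in PBS-WT (8 with scaling by total counts alone). Together they took, in group order, 0.0185%, 0.0291%, 0.0372% and 0.0981% of the reads, or 172, 229, 416 and 1202 CPM. The middle libraries were not in a fixed order: *Fbln1*, *Fbln2*, *Fbln5*, *Efemp1* and *Mfap4*, 5 of 10, were lower in BLEO-WT than in PBS-HPS1, and with total counts alone so were *Fbn1* and *Mfap5*. The number of cells put into a library also increased in group order, and 4 of the 10 genes followed that order (2 with total counts alone).

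*Eln* (ENSMUSG00000029675), which encodes elastin, lies on the minus strand of chromosome 5 from 134702593 to 134747323 (GRCm38, GENCODE M21, as are all gene positions here). It was at 30.6 CPM (2382 reads) and 48.8 CPM (4832) in PBS-WT and PBS-HPS1, and at 154 CPM (12066) and 445 CPM (28083) in BLEO-WT and BLEO-HPS1. *Eln* therefore separated the bleomycin libraries from the PBS libraries in either genotype and was highest with bleomycin in *Hps1*-/-. Its log2 ratio of BLEO-WT to PBS-WT was 2.33 (interval 2.27 to 2.40) and that of BLEO-HPS1 to PBS-HPS1 was 3.19 (3.14 to 3.23), the largest of the 10 in each genotype, though with the correction *Mfap5* (2.95) and *Fbln1* (2.64) exceeded *Eln* (2.62) in *Hps1*-/-. Between genotypes it was 0.67 with PBS (0.60 to 0.75) and 1.53 with bleomycin (1.50 to 1.56).

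*Fbn1* (ENSMUSG00000027204), which encodes the fibrillin-1 backbone of microfibrils, lies on the minus strand of chromosome 2 from 125300594 to 125507993. It was at 14.4, 33.6, 40.1 and 118 CPM in group order (1123, 3327, 3141 and 7453 reads). PBS-HPS1 and BLEO-WT were thus close to each other (42.8 and 35.8 CPM with total counts alone), well above PBS-WT and well below BLEO-HPS1. Its log2 ratio between genotypes was 1.22 with PBS (1.12 to 1.32), the largest of the 10 there before the correction (0.98 after it, below *Mfap5* and *Fbln1*), and 1.56 with bleomycin (1.50 to 1.62).

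*Mfap4* and *Mfap5* encode microfibril-associated glycoproteins. *Mfap4* (ENSMUSG00000042436, chromosome 11, plus strand, 61485431 to 61488900) was at 16.2, 29.4, 27.6 and 96.2 CPM in group order. *Mfap5* (ENSMUSG00000030116, chromosome 6, plus strand, 122505845 to 122529290) was at 2.00, 4.67, 4.85 and 36.7 CPM on 156, 462, 380 and 2319 reads. The 156 reads in PBS-WT were the fewest of the set, and the counting interval there was 1.70 to 2.34 CPM. In both genes the middle pair of libraries lay close together with TMM factors and BLEO-HPS1 stood apart. With total counts alone the middle pair, PBS-HPS1 then BLEO-WT, was at 37.4 and 24.7 CPM for *Mfap4* and at 5.95 and 4.34 CPM for *Mfap5*. BLEO-HPS1 exceeded BLEO-WT by 1.80 on the log2 scale for *Mfap4* (1.73 to 1.87) and by 2.91 for *Mfap5* (2.76 to 3.08), so that *Mfap5* reads per *Mfap4* read were 0.176 (0.157 to 0.196) in BLEO-WT and 0.381 (0.363 to 0.400) in BLEO-HPS1.

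*Emilin1* (ENSMUSG00000029163, chromosome 5, plus strand, 30913402 to 30921277) encodes a glycoprotein at the interface of elastin and microfibrils. It was at 71.8 CPM (5601 reads) and 53.0 CPM (5245) in PBS-WT and PBS-HPS1, and at 133 CPM (10443) and 197 CPM (12424) in BLEO-WT and BLEO-HPS1. *Emilin1* was the exception of the set: it took the most reads of the 10 in each PBS library, the only gene lower in PBS-HPS1 than in PBS-WT, at a log2 ratio of -0.44 (-0.49 to -0.39), and the only gene under 2-fold between BLEO-HPS1 and BLEO-WT, at 0.56 (0.52 to 0.60). Its bleomycin ratios, 0.89 in WT (0.84 to 0.94) and 1.89 in *Hps1*-/- (1.85 to 1.94), lay among those of the others.

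*Fbln1* and *Fbln2*, the larger fibulins, had, with *Mfap5*, the strongest contrast between BLEO-HPS1 and the other 3 libraries. *Fbln1* (ENSMUSG00000006369, chromosome 15, plus strand, 85205949 to 85286535) was at 7.61 CPM (593 reads) and 16.0 CPM (1580) with PBS, WT before *Hps1*-/-, and at 14.4 CPM (1133) and 135 CPM (8517) with bleomycin. *Fbln2* (ENSMUSG00000064080, chromosome 6, plus strand, 91212455 to 91272540) was at 8.26, 14.7, 14.6 and 97.0 CPM on 644, 1457, 1146 and 6128 reads. PBS-HPS1 and BLEO-WT lay close together in either gene with TMM factors. With total counts alone this pair was at 20.3 and 12.9 CPM for *Fbln1* and at 18.8 and 13.1 CPM for *Fbln2*. BLEO-HPS1 was 9.32-fold above BLEO-WT for *Fbln1* and 6.63-fold above it for *Fbln2*. These are log2 ratios of 3.22 (3.13 to 3.31) and 2.73 (2.64 to 2.82).

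Of the short fibulins, *Fbln5* and *Efemp1* varied least across the libraries before the correction. *Fbln5* (ENSMUSG00000021186, chromosome 12, minus strand, 101746565 to 101819055) was at 7.88, 12.2, 9.64 and 25.8 CPM in group order. *Efemp1* (ENSMUSG00000020467, chromosome 11, plus strand, 28853204 to 28926743) was at 5.44, 8.56, 6.13 and 16.4 CPM. Both were higher in PBS-HPS1 than in BLEO-WT, and their bleomycin ratios in WT were the smallest of the set: 0.29 on the log2 scale for *Fbln5* (0.14 to 0.45) and 0.17 for *Efemp1*, whose interval, -0.02 to 0.37, includes 0 and whose ratio was -0.09 with total counts alone. With bleomycin, *Hps1*-/- exceeded WT by 1.42 (1.29 to 1.54) for *Fbln5* and 1.41 (1.26 to 1.58) for *Efemp1*. *Efemp2* (ENSMUSG00000024909, chromosome 19, plus strand, 5473954 to 5482517) was at 7.53, 7.88, 11.9 and 36.1 CPM. Unlike them it was level between the PBS libraries, with a log2 ratio of 0.06 (-0.09 to 0.22), while BLEO-HPS1 exceeded BLEO-WT by 1.60 (1.49 to 1.72).

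**Figure D2:**
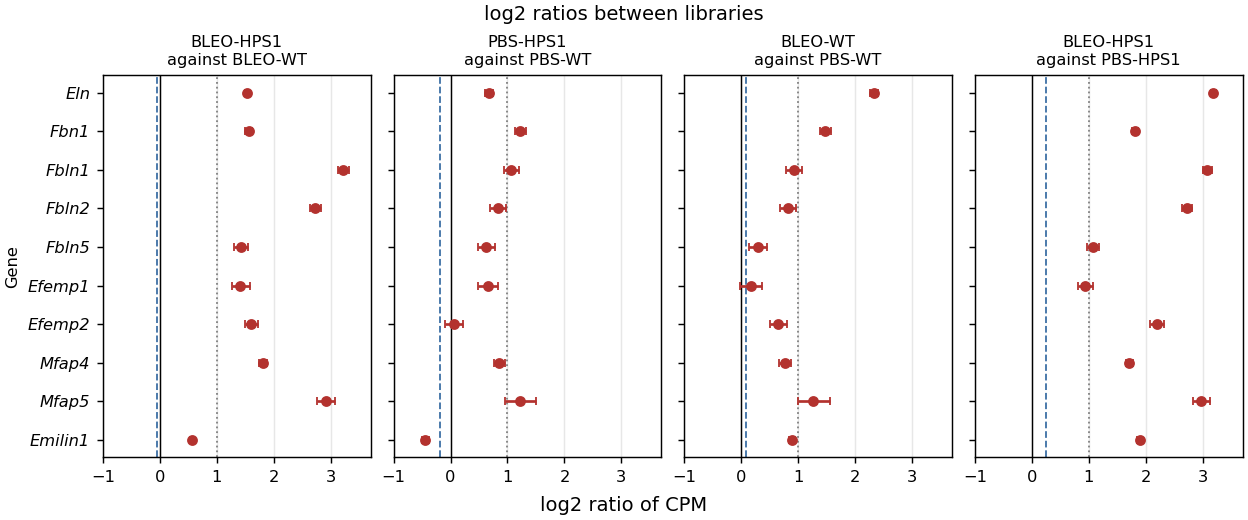
Log2 ratio of CPM of each gene in the 4 comparisons, with exact 95% counting intervals, a dotted line at 2-fold and a dashed blue line at the median of the 14840 compared genes. All 10 genes lie to the right of 0 in 3 of the panels (with scaling by total counts alone Efemp1 moves to -0.09 for BLEO-WT against PBS-WT), and with PBS Emilin1 lies to the left.

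With bleomycin, 9 of the 10 genes were at least 2-fold higher in *Hps1*-/- than in WT, all but *Emilin1*, against 6.72% of all compared genes. Their median log2 ratio was 1.58 (range 0.56 to 3.22), beside -0.04 for all compared genes. *Fbln1*, *Mfap5* and *Fbln2* formed the upper end at 9.32-, 7.54- and 6.63-fold, and the other 6 lay between 2.67- and 3.49-fold. The fibroblast marker list had a median of 2.28 in this comparison with 9 of 10 genes at least 2-fold higher. *Pdgfra*, a receptor of lung fibroblasts, was the exception there at 0.65 (named after its value was seen), but it was at 1.11 after the correction. The adventitial list had a median of 2.21, the smooth muscle list 1.49, the alveolar fibroblast list 0.74 and the ILC2 list -0.41, which was -0.05 after the correction.

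With PBS, 3 of the 10 genes, *Fbn1*, *Mfap5* and *Fbln1*, were at least 2-fold higher in *Hps1*-/- than in WT, against 2.16% of all compared genes. The log2 ratio was above 0 for 9 of 10 genes, with a median of 0.75 beside -0.19 for all genes. *Fbln1*, at 1.07 (0.93 to 1.21), and *Mfap5*, at 1.21 (0.96 to 1.49), had counting intervals that reach below 2-fold. With scaling by total counts alone 5 of 10 genes reached 2-fold, against 3.92% of all genes. With the correction 2 of 10 did, *Mfap5* (1.26) and *Fbln1* (1.07), with *Fbn1* at 0.98, against 2.14% of all genes. The fibroblast marker list had a median of 0.77 here.

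Bleomycin in WT mice gave 3 of 10 genes at least 2-fold above PBS-WT, *Eln*, *Fbn1* and *Mfap5*, against 5.28% of all compared genes. The median over the 10 was 0.86, beside 0.09 for all genes and 1.29 for the fibroblast markers. *Eln* stood alone at 5.03-fold, *Fbn1* followed at 2.78-fold and *Mfap5* at 2.40-fold, and the other 7 lay between 1.13- and 1.90-fold.

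In *Hps1*-/- mice, 9 of 10 genes were at least 2-fold higher in BLEO-HPS1 than in PBS-HPS1, all but *Efemp1*, which was at 0.94 (0.80 to 1.07). Here the background was high, since 26.2% of all compared genes did the same, and it depended on the scaling: with total counts alone the same share was 9.33%, beside 8 of the 10 genes. The median over the 10 was 2.04, beside 0.25 for all genes and 2.93 for the fibroblast markers. *Eln* (9.11-fold), *Fbln1* (8.44-fold), *Mfap5* (7.83-fold) and *Fbln2* (6.58-fold) were at the upper end and *Fbln5* (2.11-fold) and *Efemp1* (1.91-fold) at the lower. With the correction all 10 genes reached 2-fold, beside 18.4% of all genes, and the lower end changed. *Mfap4* was then lowest at a log2 ratio of 1.01 and *Efemp1* was at 1.24, whereas *Fbln5* was at 1.88 and *Fbn1* at 2.62.

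**Figure D3:**
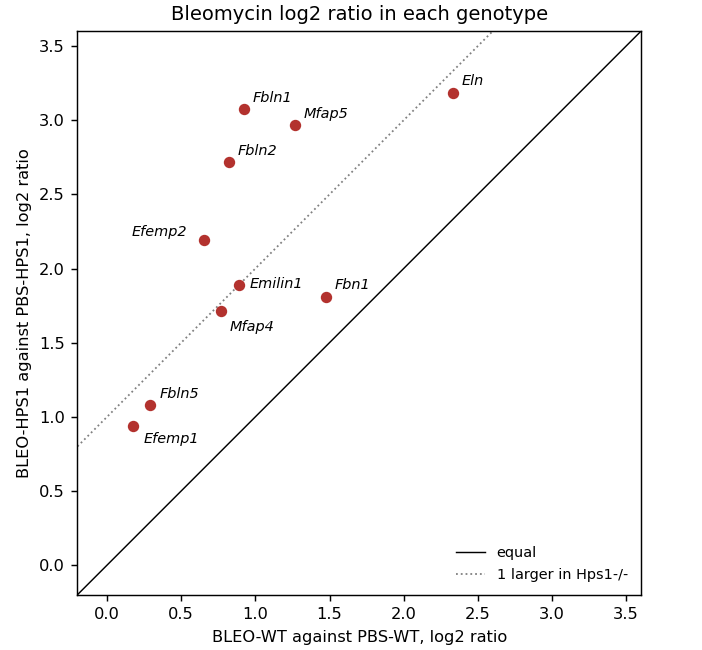
Log2 ratio of bleomycin to PBS in WT (horizontal) and in Hps1-/- mice (vertical), 1 point per gene, with a solid line where they are equal and a dotted line where the Hps1-/- ratio is larger by 1. All 10 genes lie above the solid line, Fbn1 nearest to it and Fbln1 farthest, and with scaling by total counts alone Fbn1 falls below it by 0.04.

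The bleomycin log2 ratio was larger in *Hps1*-/- than in WT for all 10 genes, by a median of 0.97, beside 0.15 for all compared genes, though with total counts alone *Fbn1* was at -0.04 and 9 of 10 were larger. The excess was 2.15 for *Fbln1* (counting interval 1.99 to 2.32), 1.90 for *Fbln2* (1.74 to 2.06), 1.70 for *Mfap5* (1.40 to 2.01) and 1.54 for *Efemp2* (1.35 to 1.73). It was 1.0 for *Emilin1* (0.94 to 1.07) and below 1 for the others, down to 0.34 for *Fbn1* (0.22 to 0.45). An excess of at least 1 was thus found for 5 of 10 genes and for 16.3% of all compared genes. With total counts alone it was found for 4 of 10. With the correction it was again 5, of which *Emilin1* (0.61) was no longer one and *Fbln5* (1.37) was, and the range was from 0.43 (*Mfap4*) to 1.88 (*Fbln1*), with *Fbn1* at 0.97. The share of all compared genes with such an excess is not given here for total counts or for the correction. *Eln* had an excess of 0.86 (0.78 to 0.93), while *Fbln1* and *Fbln2*, under 2-fold in WT, had the largest excess. No test of this interaction was possible with 1 library in each of the 4 groups.

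**Figure D4:**
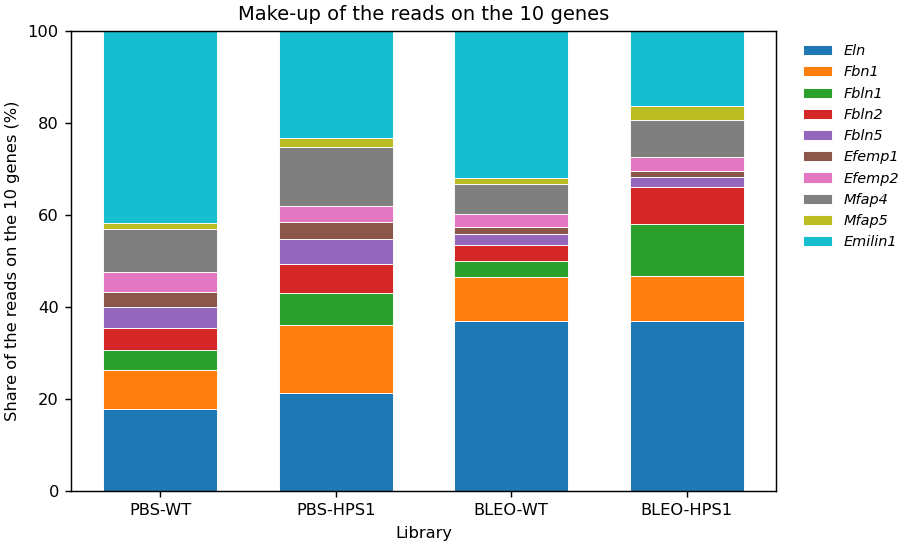
Share of the reads on the 10 genes taken by each gene (%), 1 bar per library. Emilin1 has the largest share in the PBS libraries and Eln in the bleomycin libraries, and the Fbln1 share is largest in BLEO-HPS1.

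Ratios of reads within 1 library do not depend on how library size is scaled, and by them the make-up of the set differed between libraries. *Emilin1* took 41.8%, 23.2%, 32.0% and 16.4% of the reads on the 10 genes in group order. *Eln* took 17.8%, 21.3%, 37.0% and 37.0%, so its share differed with bleomycin and hardly between the bleomycin libraries. *Fbln1* took 4.43%, 6.98%, 3.47% and 11.2%, and so had its lowest share in BLEO-WT and its highest in BLEO-HPS1.

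There were 3.88 *Eln* reads per *Fbln5* read in PBS-WT (3.55 to 4.25) and 4.0 in PBS-HPS1 (3.75 to 4.26), against 16.0 in BLEO-WT (14.8 to 17.2) and 17.3 in BLEO-HPS1 (16.4 to 18.1). Between the bleomycin libraries this ratio differed by 1.08-fold as counted, but it was 0.601-fold in BLEO-HPS1 relative to BLEO-WT with the corrected ratios. Likewise the bleomycin difference in *Hps1*-/- mice was 4.32-fold as counted and 1.68-fold corrected, and in WT mice 4.11- and 3.05-fold. In contrast, *Fbln1* reads per *Fbln5* read were 0.966 (0.861 to 1.08), 1.31 (1.21 to 1.41), 1.50 (1.37 to 1.65) and 5.23 (4.96 to 5.52), and *Fbln2* reads per *Fbln5* read were 1.05, 1.21, 1.52 and 3.76. Both were highest in BLEO-HPS1. The excess over BLEO-WT was 3.49-fold for *Fbln1* per *Fbln5* as counted and 2.08-fold corrected, and 2.48- and 1.50-fold for *Fbln2* per *Fbln5*. Per read of *Efemp2*, another short fibulin, *Fbln1* reads were 1.01, 2.03, 1.22 and 3.73 and *Fbln2* reads 1.10, 1.87, 1.23 and 2.69, so that BLEO-HPS1 was again highest but PBS-HPS1 lay nearer to it. *Fbln1* reads per *Eln* read were 0.249, 0.327, 0.0939 and 0.303, lowest in BLEO-WT. *Eln* reads per *Fbn1* read, core over scaffold, were 2.12, 1.45, 3.84 and 3.77 in group order, and the intervals of the bleomycin pair, 3.69 to 4.0 and 3.67 to 3.87, overlapped. This picture changed with the correction. The corrected log2 ratios between the bleomycin libraries were 1.15 for *Eln* and 1.95 for *Fbn1*, so that the pair was no longer level. For bleomycin against PBS they were 2.62 for each gene in *Hps1*-/-, and 2.12 for *Eln* and 1.65 for *Fbn1* in WT.

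Reads on the 10 per read on the fibroblast list were 0.817, 0.612, 0.624 and 0.378 in group order, lowest in BLEO-HPS1. Without *Emilin1*, which took the largest share in PBS-WT, they were 0.475, 0.470, 0.425 and 0.316, so that the PBS libraries were nearly level and BLEO-HPS1 was still lowest. Single genes differed from this sum, since the ratios of *Fbln1*, *Mfap5* and *Fbln2* between the bleomycin libraries exceeded the fibroblast median. The collagen genes *Col1a1*, *Col1a2* and *Col3a1* held most reads of the fibroblast list. They had 62054, 51338 and 46152 of its 200883 reads in BLEO-HPS1, and 2974, 3534 and 4024 of 16389 in PBS-WT. The ratios above therefore follow mainly these collagens, and ratios over the rest of the list are not given here.

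Compared per kilobase of the longest transcript, *Eln* led in BLEO-HPS1 at 115 CPM per kb, followed by *Mfap4* (54.4), *Emilin1* (51.1), *Fbln1* (36.8), *Fbln2* (20.3), *Mfap5* (14.7), *Efemp2* (13.7), *Fbn1* (9.86), *Efemp1* (8.05) and *Fbln5* (4.42). In this library only *Mfap5* and *Efemp2* had overlapping counting intervals among neighbours. *Fbn1* has by far the longest transcript, 11971 bases, and ranked lower per kilobase than by reads. In BLEO-WT the order opened with *Eln* (39.9 CPM per kb), *Emilin1* (34.6) and *Mfap4* (15.6), and closed with *Mfap5* (1.95) and *Fbln5* (1.65), which overlapped. There *Fbn1*, *Fbln2* and *Efemp1* also followed one another with overlapping intervals. In PBS-HPS1 *Mfap4* (16.6), *Emilin1* (13.8) and *Eln* (12.7) led, and in PBS-WT *Emilin1* (18.7), *Mfap4* (9.16) and *Eln* (7.93). The same 3 genes were at the top in every library, and *Mfap5* was last in both PBS libraries and sixth in BLEO-HPS1.

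The other genes of elastic fibre assembly and turnover were followed with 7 lists, of which 49 genes were compared. Between the bleomycin libraries, 12 of the 49 were at least 2-fold higher and 1 was lower, with a median log2 ratio of 0.21. These are 24.5% and 2.04% of the 49, beside 6.72% higher and 10.3% lower by the same measure among all compared genes. Lysyl oxidases, which cross-link elastin and collagen, came closest to the 10 genes: 4 of 5 were at least 2-fold higher, with a median of 1.61. *Loxl1*, the family member tied to elastin upkeep, was at 8.31, 14.6, 15.7 and 100.5 CPM in group order, values close to those of *Fbln2*, and it was 2.68 higher on the log2 scale in the bleomycin *Hps1*-/- library than in BLEO-WT. *Loxl2* was at 2.55, 5.30, 5.09 and 16.5 CPM, with a ratio of 1.69.

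Of the latent TGF-β binding proteins, which dock on fibrillin microfibrils, 2 of 4 were at least 2-fold higher (median 1.11). *Ltbp4*, which also takes part in elastin assembly, was at 113, 197, 116 and 400 CPM, level between the WT libraries (0.04) and with a log2 ratio of 1.79 between the bleomycin libraries. *Ltbp2* was at 7.44, 11.2, 20.2 and 49.0 CPM, with a ratio of 1.28. Among other fibulins and emilins, 2 of 6 were higher: *Hmcn2*, a very large fibulin-related protein, at 1.13, 1.79, 1.21 and 11.5 CPM (3.22), and *Fbln7* at 0.372, 0.333, 0.383 and 1.87 CPM (2.21, on 30 and 118 reads). *Fbln7* reached the 1 CPM needed for comparison only in BLEO-HPS1, so the filter itself favoured its being counted as higher there. Of 8 other microfibril genes, 2 were higher and 1 lower, with a median of -0.04. *Adamtsl2*, at 11.4 CPM in BLEO-WT and 24.7 in BLEO-HPS1, had a ratio of 1.12, and *Fbn2*, the fibrillin of development, was at -1.13 on only 24 and 8 reads.

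Genes that cut elastin or its partners, their inhibitors and the receptors mostly stayed under 2-fold between the bleomycin libraries. Of 9 elastin-cutting enzymes, 1 was at least 2-fold higher, the gelatinase *Mmp2* at 7.34, 12.6, 38.0 and 172 CPM (2.18), and the list's median was -0.25. *Prtn3*, a neutrophil serine protease, had a ratio of 0.90 at 2.83 and 5.32 CPM. Of 6 inhibitors, 1 was higher, *Timp1*, which blocks metalloproteinases, at 0.808, 1.65, 11.2 and 41.4 CPM (1.88), and *Cst3*, an inhibitor of cysteine cathepsins, had a ratio of 0.92. Of 11 genes of the elastin receptor complex and integrins, 0 reached 2-fold in either direction (median 0.12), with *Itgav* at -0.95 and *Itga4* at -0.78. The correction took these to -0.26 and 0.05 and the list's median to -0.06, and it took *Prtn3* to 0.23 and *Cst3* to 0.24.

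The other comparisons gave 6 of the 49 pathway genes (12.2%) at least 2-fold higher and 4 (8.16%) lower in PBS-HPS1 than PBS-WT, the 4 all elastin-cutting enzymes, beside 2.16% and 3.11% of all compared genes. Of the higher genes *Fbn2* reached 1 CPM only in PBS-HPS1, and of the lower genes *Ctsg* only in PBS-WT, so the filter favoured these counts. With bleomycin in WT mice, 18 (36.7%) were higher and 2 (4.08%) lower than with PBS, beside 5.28% and 8.22% of all genes. In *Hps1*-/- mice, 28 (57.1%) were higher and 5 (10.2%) lower, beside 26.2% and 19.6% of all genes, and the first of these background shares was 9.33% with total counts alone. Here too the filter favoured some counts. *Fbln7* and *Timp4*, among the higher genes in *Hps1*-/-, reached 1 CPM only in BLEO-HPS1. *Fbn2* was among the lower genes in *Hps1*-/- and *Ctsg* among the lower genes in WT. Lysyl oxidases gave 2 of 5, 1 of 5 and 4 of 5 genes at least 2-fold higher in these comparisons, and elastin-cutting enzymes 0 of 9, 5 of 9 and 6 of 9.

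**Figure D5:**
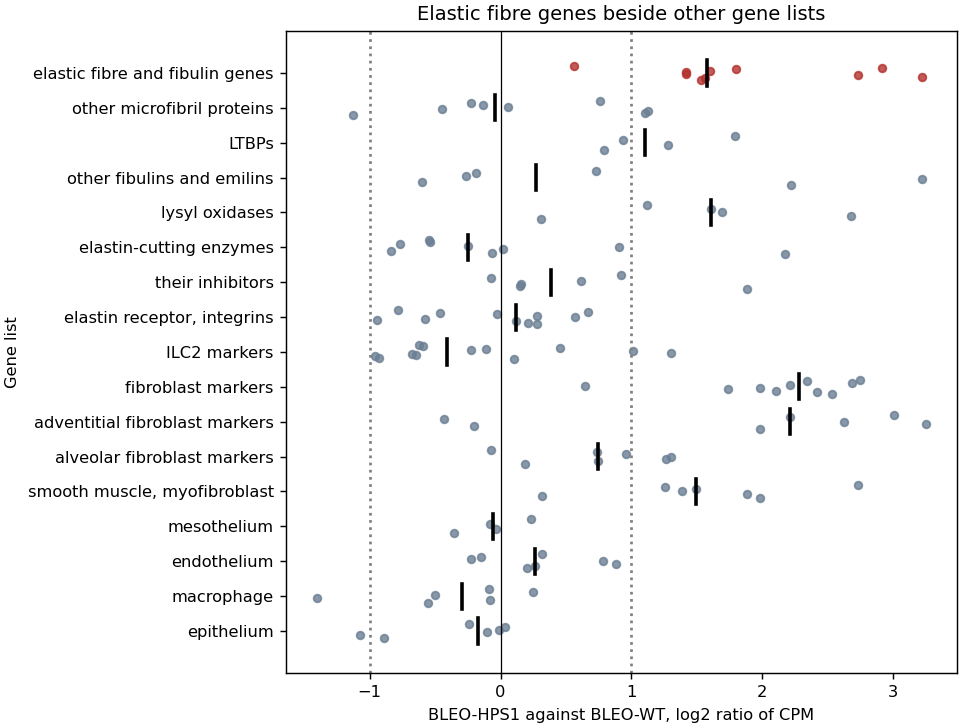
Log2 ratio between BLEO-HPS1 and BLEO-WT for each gene (points), by list, with a black bar at the list's median and dotted lines at 2-fold either way. The 10 elastic fibre and fibulin genes (red) lie near the lysyl oxidases and the smooth muscle list, with a median of 1.58 below those of the fibroblast list (2.28) and the adventitial list (2.21).

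The 10 genes did not share 1 profile exactly. Measured as the distance between centred log2 CPM over the 4 libraries, *Mfap4* lay nearest to the median profile of the set (0.30), followed by *Fbn1* (0.51) and *Efemp2* (0.54), and *Eln* (1.36), *Emilin1* (1.26) and *Fbln1* (1.15) lay farthest. Among 9746 other genes searched, the nearest to this median profile was *Bmp1* (distance 0.24), the protease that trims procollagens and activates lysyl oxidases, at 6.53, 9.71, 10.7 and 38.7 CPM in group order. The next were *Hspg2* (0.28), which encodes the basement membrane proteoglycan perlecan, *Fndc1* (0.30), *Dbn1* (0.33), which encodes the actin-binding protein drebrin, and *C1s1* (0.34), a complement protease gene. *Hspg2* was at 17.9, 31.3, 36.1 and 112 CPM. With 4 libraries, such likeness rests on 4 values a gene.

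Over 9748 genes, which are not independent replicates, the log2 ratio between the bleomycin libraries had a Spearman rho of 0.62 with GC content and of -0.51 with transcript length. After the correction, 9 of the 10 genes were still at least 2-fold higher in the bleomycin *Hps1*-/- library, beside 5.25% of all genes, with a median of 1.75. The correction moved genes in both directions: *Fbln5* went from 1.42 to 1.89 and *Fbn1* from 1.56 to 1.95, whereas *Eln* went from 1.53 to 1.15 and *Emilin1*, with the highest GC content of the 10 (61.1%), from 0.56 to 0.14. *Fbln1* at 2.95, *Mfap5* at 2.93 and *Fbln2* at 2.48 again formed the upper end.

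Gene counts do not separate isoforms, and whether the counting used strand is not given in the sources used here. Genes on the opposite strand share exon bases with 4 of the 10. *Gm30003* (opposite *Eln*) and *Gm9913* (opposite *Fbn1*) had at most 10 reads in any library. *Mus81* shares 173 bases with *Efemp2* and was at 16.2, 12.4, 18.3 and 28.9 CPM, and *Mapk7* shares 89 bases with *Mfap4* and was at 32.1, 27.9, 42.1 and 46.9 CPM. Both were highest in BLEO-HPS1, and how far their reads enter the counts of *Efemp2* and *Mfap4* was not tested.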

How the data were processed

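RNA-Seq of sorted, IL-2-cultured lung ILC2s was available for 4 groups, 1 library each, assigned from the sample labels. The authors deposited raw counts per Ensembl gene, as whole reads and without normalization, from SMARTER mRNA-Seq libraries of total RNA. Aligner, counting tool, genome build and annotation are not given in the sources used here. GENCODE M21 held 48970 of the 49315 gene identifiers and supplied positions, transcript lengths and GC content.

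Counts were scaled by TMM (edgeR 4.0.16, R 4.3.3), with factors of 1.08 and 1.27 for the PBS libraries (WT, then *Hps1*-/-) and of 0.895 and 0.816 for the bleomycin libraries. The 14840 genes that reached a CPM of 1 in any library were compared. Log2 ratios used a prior count of 2, and a gene counted as different at 2-fold. Intervals of ratios are exact Clopper-Pearson 95% intervals of the reads, and those of CPM are exact Poisson intervals. Intervals of the excess of the bleomycin ratio are approximate, from a normal distribution of log counts. PCR copies make all of them too narrow as a measure of molecules. With 1 library per group no p-value was computed. Alternatives were total counts, DESeq2 size factors (version 1.42.0), TMM without immunoglobulin genes, prior counts of 0.5 and 10, a log2 threshold of 2, all genes kept, a minimum of 10 counts in every library, and a loess correction of the ratios (span 0.3) for transcript length and GC content. The steps were also run on simulated counts with known folds and counting error only. That run held no variation among mice and no GC or length bias, so it cannot speak to these. Genes named are the 10 members and the 2 compared genes of each other pathway list with the largest absolute log2 ratio between the bleomycin libraries. Also named are the 5 other genes with a mean log2 CPM of at least 3 nearest in profile to the members' median. Further names are pathway genes that the filter favoured, and markers singled out for their share of a list or their direction after values were seen. Members and lists were chosen with earlier results of these data known.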

Additional observations from a re-analysis of the deposited data

How the results depend on the processing

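With the log2 threshold of 2, the count of the 10 genes higher in *Hps1*-/- than in WT was 3 with bleomycin and 0 with PBS, and the count higher with bleomycin than with PBS was 1 in WT and 5 in *Hps1*-/-, by construction fewer than the 9, 3, 3 and 9 at 2-fold. The shares of all compared genes at this threshold are not given here, so these counts have no background beside them. Scaling by total counts gave 5 genes higher in PBS-HPS1 than PBS-WT, as *Fbln2* (0.83 to 1.08) and *Mfap4* (0.86 to 1.10) passed 2-fold. It moved the median of all compared genes from -0.04 to -0.17, from -0.19 to 0.05, from 0.09 to -0.17 and from 0.25 to -0.39 in these 4 comparisons. Set against that median, the median of the 10 genes stayed between 1.62 and 1.79, 0.94 and 0.95, 0.50 and 0.76, and 1.79 and 1.81 over the alternatives, and the median excess of the bleomycin ratio in *Hps1*-/- between 0.83 and 0.90. Under total counts the ratio of *Efemp1* for BLEO-WT against PBS-WT was -0.09 instead of 0.17 and the smallest excess, that of *Fbn1*, was -0.04 instead of 0.34. The share of higher genes among all that reached 2-fold went from 57.2% to 21.9% for BLEO-HPS1 against PBS-HPS1 with total counts and to 68.8% with the GC and length correction. Of 240 values of single genes under the alternatives, 173 lay within the counting interval of the reported value and 67 outside it. Nearly all values outside came from total counts or the GC and length correction, which moved most values past their interval. The other prior counts and TMM without immunoglobulin genes moved none past it, so the pooled count is no measure of robustness. No paired analysis was possible because each group has 1 library, and for the same reason no library could be left out. The depth limited none of the 10 genes, the fewest reads being 156, whereas the missing replicates limit every comparison.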
